A study of Mus musculus with 8 samples.

Results

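The transcripts of p53 (Trp53) and of 32 genes that p53 is known to control or that act back on it were followed in whole BM cells of 8 mice. These 33 genes were taken from a written list of symbols, matched to the identifiers of the count tables, and they are 33 of the 41214 genes counted. They were sorted by role into p53 and its feedback genes (5 genes), cell cycle arrest (6 genes), DNA repair (5 genes), cell death (10 genes), metabolism and redox defence (6 genes) and the tetraspanin gene Cd82 (1 gene).

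The mice were C57Bl6 animals in 4 groups of 2, and carried a Gfi1 allele that lowers the transcription factor (KD) or a knockout of Gfi1 (KO). The KD allele is a human GFI1 cDNA placed in the locus together with a floxed neo cassette in antisense, which keeps its expression low. Young KD mice were 39 and 42 days old, young KO mice 48 and 44 days, old KO mice 158 and 101 days, and sick KD mice 187 and 78 days. The labels give AML for the sick KD mice and no AML for the other groups, whereas the study describes a myeloproliferative neoplasm. Sick KD and old KO thus differ in the Gfi1 allele and in disease, and the mice within each of them differ widely in age. No library of a mouse with normal Gfi1 was analysed here, so KO and KD were compared only with each other. The study asked whether KD cells withstand p53-mediated cell death better than KO cells.

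p53 is a transcription factor that is held at a low level by the ubiquitin ligase Mdm2 and its relative Mdm4, and that is stabilized and modified when DNA is damaged. Once active, it binds DNA as a tetramer and raises genes that stop the cell cycle, repair DNA, kill the cell or adapt its metabolism, and it also raises Mdm2, which closes a feedback loop. In blood-forming cells it limits the survival of damaged stem and progenitor cells. Gfi1 is a repressor that recruits the lysine demethylase LSD1 (Kdm1a), which can also act on methylated lysines of the p53 protein. RNA levels measure neither the amount of p53 protein nor its modification.

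The promoters of the listed genes were searched for the p53 decamer, a palindromic motif of 10 letters. p53 acts on its targets through pairs of such decamers. Windows from RefSeq (GRCm38.p6), running from 250 bases before to 50 bases after a transcript start, were matched for 26 of the 33 genes. Xpc, Ddb2, Rrm2b, Tnfrsf10b, Perp, Trp53inp1 and Zmat3 had no window. A decamer with all 10 letters on either strand was present for 11 of the 26 genes (42.3%), and for 9.55% of the 27025 genes with a window. A pair of decamers at most 13 bases apart was present for 1 of the 26, Cdkn1a, and for 20 of all genes (0.074%). The decamers are printed in capitals with 10 bases on either side for p53 itself, for its main antagonist, for the classic arrest target and for Gadd45a and Sesn1, which changed in a comparison described below.
Trp53 (chr11:69580274-69580303, + strand): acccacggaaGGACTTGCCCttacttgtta
Mdm2 (chr10:117710925-117710954, - strand): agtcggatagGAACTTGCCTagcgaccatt
Cdkn1a (chr17:29090896-29090957, + strand): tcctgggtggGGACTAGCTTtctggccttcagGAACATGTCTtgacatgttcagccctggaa
Gadd45a (chr6:67037428-67037457, - strand): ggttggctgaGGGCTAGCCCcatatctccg
Sesn1 (chr10:41887256-41887285, + strand): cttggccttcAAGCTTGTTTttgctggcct
In Cdkn1a the decamers lie 12 bases apart, and the 10 bases right after the second of them match the motif in 9 of 10 letters. Aen, Ccng1, Ei24, Gtse1, Polk and Ppm1d also hold a decamer. Btg2, Cd82 and Plk2, which changed in a comparison below, do not hold these letters in their windows. Binding of p53 was not measured, and a match is only a match of letters. A single decamer is not a pair, and sequence outside the windows was not searched.

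The libraries held 26642067 to 42679114 counts on genes. Reads outside annotated genes made up 42.0% and 38.8% of the uniquely placed reads of the sick KD mice and 26.9% to 33.8% of those of the other 6, and 4 RNAs without a poly(A) tail (Rmrp, Rpph1, Rn7sk, Terc) summed to 32732 and 45680 CPM in sick KD and to between 12880 and 16185 CPM elsewhere, so the sick KD libraries stood apart in RNA composition. Here CPM is the count of a gene scaled to the size of the library, with TMM factors for its composition. Gfi1 read 6.17 and 7.03 CPM where the label was young KD, 13.99 and 14.4 CPM in young KO, 5.49 and 7.15 CPM in sick KD and 13.3 and 29.7 CPM in old KO, and so was higher in the libraries labelled KO. Counts on the mouse gene measure neither allele cleanly, so they cannot check the labels, and each direction between KO and KD rests on the labels. The 2 replicates of a group are separate mice. The p-values rest on the spread between them and on estimates of spread shared across genes.

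For 20 of the 33 genes the highest group mean was less than 1.5 times the lowest. The share of all genes within that limit was not worked out. Per kilobase of exon, Btg2 was the most abundant (71.3 CPM per kb, mean of the 8 libraries), followed by Ccng1 (32.7), Trp53inp1 (17.4) and Mdm2 (16.1). Cdkn1a stood at 1.25 CPM per kb. Tnfrsf10b, Eda2r, Perp and Phlda3 had a median below 1 CPM, and Eda2r, with 1 to 9 counts per library, was the only member that did not have enough counts to be tested. The other 32 were tested in every comparison, and 7 of them passed an adjusted p of 0.05 in at least 1. In single comparisons up to 20.9% of all genes tested passed, and the share passing in at least 1 was not worked out.

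**Figure D1:**
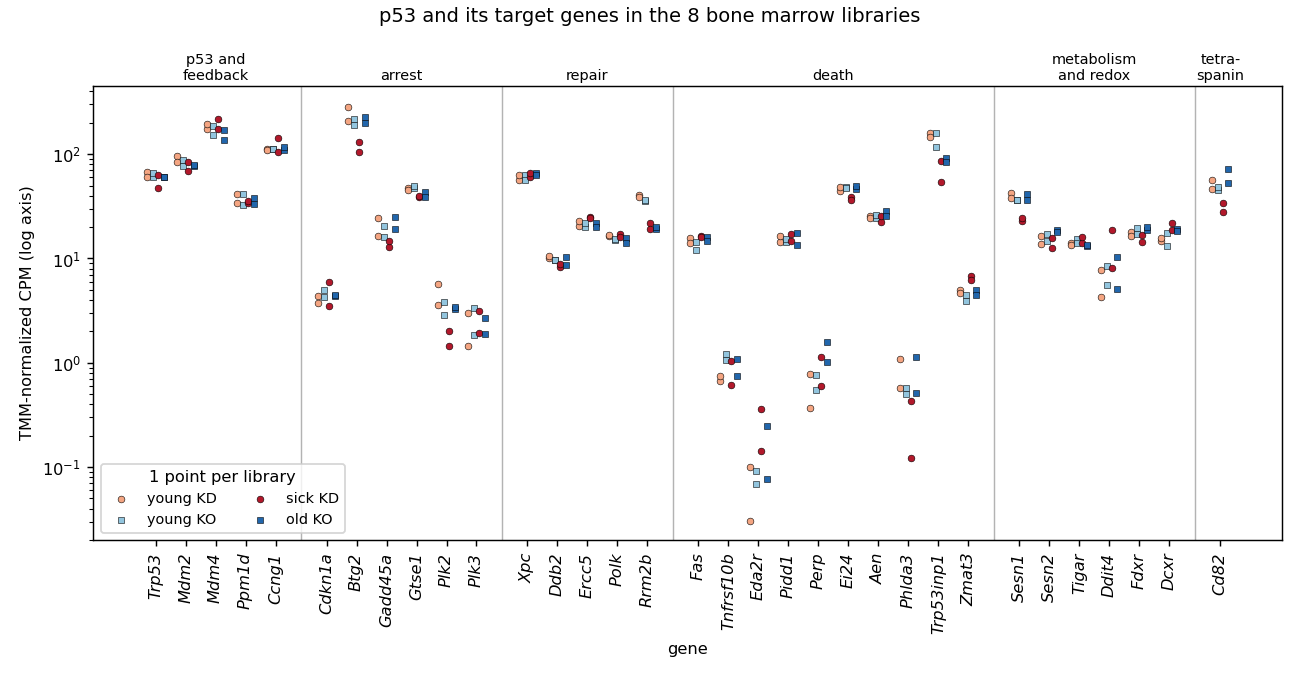
Level of each of the 33 genes in TMM-normalized CPM on a log axis, 1 point per library, ordered by role; circles are KD mice and squares KO mice, with young groups in pale and sick or old groups in dark colours. Points of most genes lie close together, while in Btg2, Sesn1 and Cd82 both sick KD points lie below the other 6, and in Rrm2b and Trp53inp1 the 4 sick and old points lie below the 4 young ones.

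The gene for p53 itself was transcribed at nearly the same level in all groups. Trp53 (ENSMUSG00000059552, chr11:69580359-69591873) read 66.9 and 60.2 CPM in young KD, 61.0 and 65.4 CPM in young KO, 47.5 and 62.7 CPM in sick KD and 60.1 and 60.9 CPM in old KO. The lowest value came from 1 sick KD mouse, and the other 7 libraries lay between 60.1 and 66.9 CPM, with both old KO values just below both young KO values. Young KO differed from young KD by a log2 fold change of -0.01 (standard error, SE, 0.09, adjusted p = 1.0, edgeR's quasi-likelihood F test, Benjamini-Hochberg) and old KO from sick KD by 0.14 (SE 0.15, adjusted p = 0.550, edgeR).

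The feedback genes did not pass the test in any comparison either. Mdm2 (ENSMUSG00000020184, chr10:117688875-117710758), which marks p53 for destruction and is itself a p53 target, read 96.8 and 83.4 CPM in young KD, 77.8 and 87.7 CPM in young KO, 84.8 and 68.9 CPM in sick KD and 77.6 and 78.4 CPM in old KO. The groups overlapped, with a log2 fold change of -0.13 for young KO against young KD (SE 0.11, adjusted p = 1.0, edgeR) and 0.02 for old KO against sick KD (SE 0.13, adjusted p = 0.912, edgeR). Mdm4, which binds and blocks p53, ranged from 137 to 218 CPM. It was lower in both old KO libraries (170 and 137 CPM) than in both sick KD libraries (218 and 175 CPM), but the difference missed the threshold (adjusted p = 0.181, edgeR). Ppm1d, the phosphatase Wip1 that dampens the damage response, ranged from 32.2 to 41.6 CPM, and Ccng1 (cyclin G1) from 105 to 143 CPM.

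Among the arrest genes, the antiproliferative factor Btg2 and the stress gene Gadd45a passed the test in old KO against sick KD. Plk2 also separated these mice without overlap but did not pass, and Cdkn1a did neither. Cdkn1a (ENSMUSG00000023067, chr17:29090976-29100727), which encodes the cyclin-dependent kinase inhibitor p21, read 4.34 and 3.77 CPM in young KD, 4.27 and 4.93 CPM in young KO, 3.51 and 6.01 CPM in sick KD and 4.37 and 4.47 CPM in old KO. Both its lowest and its highest value came from sick KD mice. Its log2 fold change was 0.18 for young KO against young KD (SE 0.19, adjusted p = 1.0, edgeR) and -0.11 for old KO against sick KD (SE 0.30, adjusted p = 0.829, edgeR).

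Btg2 (ENSMUSG00000020423, chr1:134075170-134079120) read 283 and 207 CPM in young KD, 192 and 216 CPM in young KO, 106 and 132 CPM in sick KD and 227 and 200 CPM in old KO. Both sick KD libraries were below all others, and the other 3 groups overlapped. Btg2 was higher in old KO than in sick KD by a log2 fold change of 0.85 (SE 0.15, adjusted p = 0.0147, edgeR), and it fell from young KD to sick KD (log2 fold change -1.05, SE 0.19, adjusted p = 0.0158, edgeR).

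Gadd45a (ENSMUSG00000036390, chr6:67035096-67037457), whose protein takes part in growth arrest and DNA repair, read 24.4 and 16.4 CPM in young KD, 16.2 and 20.6 CPM in young KO, 12.96 and 14.7 CPM in sick KD and 24.9 and 19.0 CPM in old KO. Sick KD was again the lowest group without overlap. The log2 fold change of old KO against sick KD was 0.67 and lay at the threshold (SE 0.19, adjusted p = 0.0499, edgeR), and the call was lost in 5 of 10 alternative analyses. A transcript on the opposite strand, E230016M11Rik, overlaps this gene and read 5.49 and 4.80 CPM in sick KD and 1.83 to 2.85 CPM in the other libraries. The strand setting of the counting is not given in the sources used here.

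Plk2 (ENSMUSG00000021701, chr13:110395046-110400844), a polo-like kinase induced by stress, was scarce, with 5.70 and 3.62 CPM in young KD, 2.88 and 3.81 CPM in young KO, 1.45 and 2.03 CPM in sick KD and 3.28 and 3.45 CPM in old KO. Both sick KD values were the lowest of the 8. Plk2 fell from young KD to sick KD (log2 fold change -1.43, SE 0.33, adjusted p = 0.0305, edgeR), whereas 0.95 for old KO against sick KD did not pass (SE 0.29, adjusted p = 0.0610, edgeR). The related kinase gene Plk3, at 1.45 to 3.38 CPM, spread by up to 2.09 times within a group. Gtse1, a protein of dividing cells that binds p53, ranged from 38.6 to 49.7 CPM and was slightly lower in the 4 sick and old libraries than in the 4 young ones, without passing the test.

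**Figure D2:**
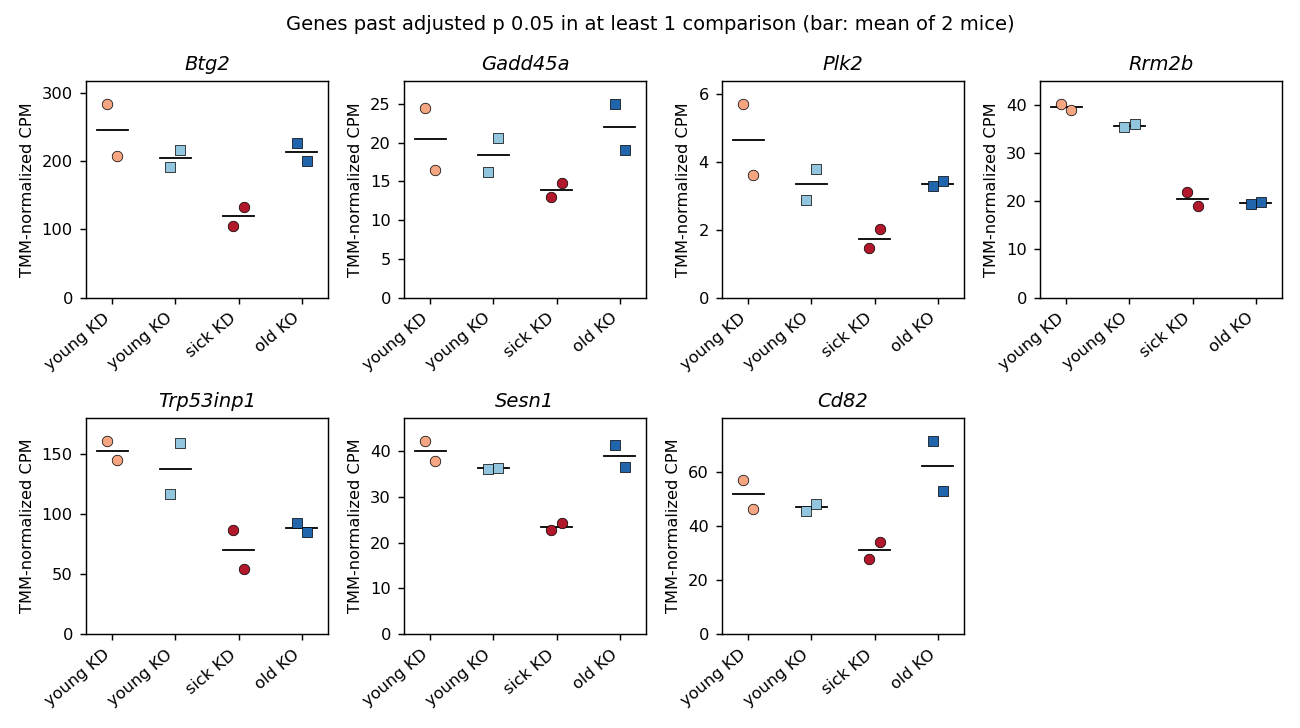
TMM-normalized CPM of the 7 genes past adjusted p 0.05 in at least 1 comparison, with 1 point per mouse, a bar at the mean of the 2 mice and axes that start at 0. Sick KD is the lowest group in Btg2, Gadd45a, Plk2, Sesn1 and Cd82, and both sick KD and old KO lie below the young groups in Rrm2b and Trp53inp1.

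Of the repair genes, Rrm2b changed and the other 4 stayed within a narrow range. Rrm2b (ENSMUSG00000022292, chr15:37923952-37961318), the p53-inducible subunit of ribonucleotide reductase that supplies DNA building blocks, read 40.2 and 39.0 CPM in young KD, 35.4 and 36.0 CPM in young KO, 21.9 and 19.1 CPM in sick KD and 19.3 and 19.9 CPM in old KO. All 4 sick and old libraries were far below the 4 young ones, with little spread within a group. Rrm2b fell by 0.96 on the log2 scale from young KD to sick KD (SE 0.12, adjusted p = 0.00763, edgeR) and by 0.86 from young KO to old KO (SE 0.09, adjusted p = 0.0297, edgeR). Old KO and sick KD overlapped. The pseudogene Gm3362 lies within Rrm2b on the same strand and read 8.52 and 8.53 CPM in sick KD and 5.05 to 6.58 CPM elsewhere. Reads shared by the 2 genes may have been dropped by the counting.

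Xpc and Ddb2, which recognize damage for nucleotide excision repair, ranged from 56.0 to 66.7 CPM and from 8.36 to 10.6 CPM. Ercc5, the nuclease XPG of the same pathway, ranged from 20.01 to 25.0 CPM, and its 2 highest values were those of sick KD (25.0 and 24.6 CPM). Polk, a polymerase that copies past lesions, ranged from 14.1 to 17.0 CPM. None of these 4 passed the test in any comparison. Ddb2 overlaps Acp2 on the opposite strand, and Acp2 read 25.7 to 36.6 CPM, more than Ddb2 itself.

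Of the 10 death genes, 9 were tested and only Trp53inp1 passed the test in any comparison. Trp53inp1 (ENSMUSG00000028211, chr4:11156431-11174379), a nuclear protein that promotes p53-dependent apoptosis and autophagy, read 161 and 145 CPM in young KD, 117 and 159 CPM in young KO, 86.6 and 54.1 CPM in sick KD and 92.9 and 84.9 CPM in old KO. As for Rrm2b, the 4 sick and old values lay below the 4 young ones. Trp53inp1 fell by 1.13 on the log2 scale from young KD to sick KD (SE 0.22, adjusted p = 0.0191, edgeR). From young KO to old KO its log2 fold change was -0.64 and did not pass (SE 0.16, adjusted p = 0.221, edgeR).

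The death receptor Fas ranged from 12.0 to 16.4 CPM, and its group means differed by no more than 1.23 times. Tnfrsf10b, the mouse TRAIL receptor, ranged from 0.605 to 1.23 CPM. It was higher in young KO (1.23 and 1.07 CPM) than in young KD (0.669 and 0.754 CPM), at an unadjusted p of 0.0458 and an adjusted p of 1.0 (edgeR). Eda2r, a receptor of the same family, ranged from 0.0302 to 0.363 CPM, which is too few counts for a comparison.

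Pidd1, the scaffold of a caspase-activating complex, and Aen, an apoptotic nuclease, ranged from 13.6 to 17.4 CPM and from 22.2 to 28.6 CPM. Ei24 was lower in sick KD (38.4 and 36.7 CPM) than in all other libraries (44.5 to 49.5 CPM), but did not pass against old KO (log2 fold change 0.35, SE 0.11, adjusted p = 0.0735, edgeR). Zmat3, an RNA-binding zinc finger protein, was highest in sick KD (6.78 and 6.19 CPM, against 3.95 to 5.04 CPM elsewhere) and did not pass either. Phlda3, which restrains AKT, read 0.121 and 0.427 CPM in sick KD and 0.4997 to 1.13 CPM elsewhere, from as few as 3 counts, and Perp, a membrane protein, ranged from 0.372 to 1.58 CPM.

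Among the metabolic genes Sesn1 stood out. Sesn1 (ENSMUSG00000038332, chr10:41809935-41908424), a sestrin that restrains mTORC1 and oxidative stress, read 42.2 and 37.7 CPM in young KD, 36.1 and 36.3 CPM in young KO, 22.8 and 24.2 CPM in sick KD and 41.2 and 36.5 CPM in old KO. Sick KD lay below the other 6 libraries with little spread. Sesn1 was higher in old KO than in sick KD by a log2 fold change of 0.73 (SE 0.13, adjusted p = 0.0137, edgeR), and it fell by 0.77 from young KD to sick KD (SE 0.12, adjusted p = 0.0118, edgeR). The decamer printed above lies upstream of a start inside the gene.

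The paralog Sesn2 ranged from 12.5 to 18.8 CPM and did not pass the test. Ddit4 (REDD1), another inhibitor of mTORC1, read 8.15 and 18.7 CPM in sick KD and 4.25 to 10.4 CPM elsewhere, and its spread within a group reached 2.29 times. Tigar, a phosphatase that slows glycolysis, ranged from 13.1 to 15.9 CPM. Fdxr, which passes electrons to mitochondrial enzymes, ranged from 14.3 to 20.2 CPM, and the reductase Dcxr from 13.2 to 21.8 CPM. Neither passed the test. Dcxr was the only tested member whose 4 sick and old values were all above the 4 young ones, as 3.72% of all genes tested were.

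Cd82 (ENSMUSG00000027215, chr2:93419111-93463140), a tetraspanin of the cell surface found on blood stem cells and myeloid cells, read 57.1 and 46.3 CPM in young KD, 45.5 and 48.1 CPM in young KO, 27.8 and 34.2 CPM in sick KD and 71.4 and 52.98 CPM in old KO. Sick KD was the lowest group, and the old KO mice included the highest value of the 8. Cd82 was higher in old KO than in sick KD by a log2 fold change of 1.004 (SE 0.18, adjusted p = 0.0141, edgeR), and it fell by 0.74 from young KD to sick KD (SE 0.16, adjusted p = 0.0250, edgeR).

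**Figure D3:**
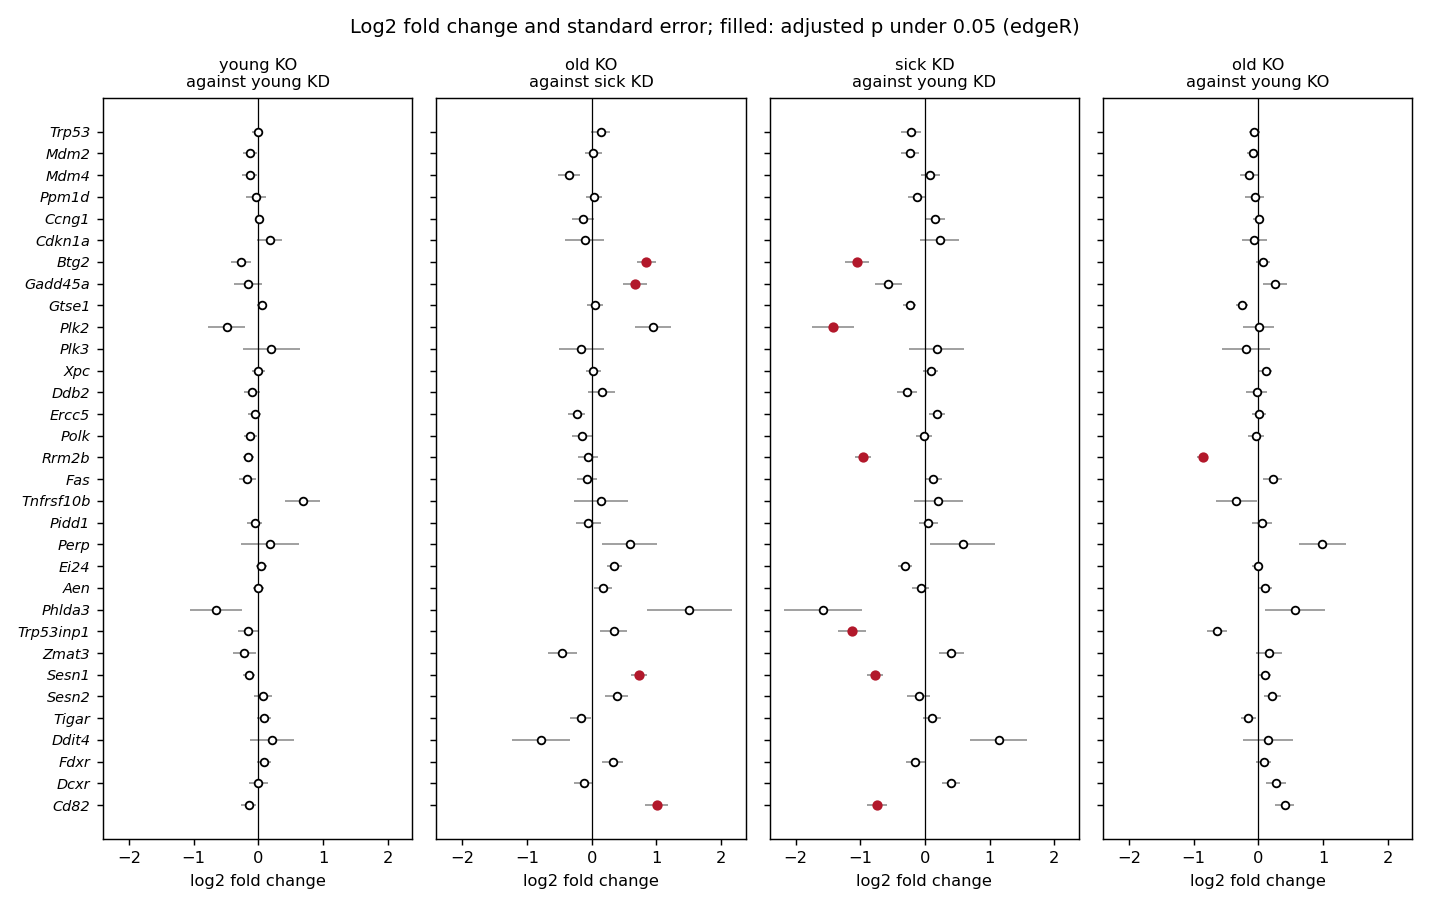
Log2 fold change of the 32 tested genes in 4 comparisons, with bars of 1 standard error and filled points for adjusted p under 0.05 in edgeR's quasi-likelihood test. The young comparison has no filled point; Btg2, Gadd45a, Sesn1 and Cd82 are filled and positive in old KO against sick KD, and Btg2, Plk2, Rrm2b, Trp53inp1, Sesn1 and Cd82 are filled and negative in sick KD against young KD.

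The first comparison asked whether loss of Gfi1 and lowered Gfi1 gave different p53 target levels before disease. In young mice none of the 32 tested genes was called between KO and KD by edgeR or by DESeq2. An unadjusted p under 0.05 was reached by 1 gene (Tnfrsf10b) with edgeR and by 0 with DESeq2. Few genes of any kind were called, 6 of 14839 (0.0404%), with 0.0202% higher and 0.0202% lower in KO. Both KO mice were above both KD mice for 2 members (Gtse1 and Tnfrsf10b) and below them for 5 (Ddb2, Polk, Rrm2b, Sesn1 and Zmat3), beside 14.9% and 12.2% of all genes tested. The median log2 fold change of the members was -0.05, and that of all tested genes was -0.01.

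Old KO and sick KD were compared as the later stage of the same 2 alleles. Of the 32 genes, 4 were higher in old KO (Btg2, Gadd45a, Sesn1 and Cd82) and 0 were lower, while 9.93% of the 14470 genes tested were higher and 8.22% lower. In either direction 12.5% of the members and 18.1% of all genes were called, so calls were no more frequent among the members in this fit. Both old KO mice were above both sick KD mice for 9 members and below them for 5, beside 32.5% and 33.5% of all genes. The median log2 fold change was 0.05 over the members and -0.00 over all genes. The called genes belong to arrest (2 of 6 tested), metabolism and redox (1 of 6) and the tetraspanin (1 of 1), with 0 of 5 feedback, 0 of 5 repair and 0 of 9 tested death genes. Without old KO mouse 1 only Btg2 and Cd82 passed, and with a filter of 1 count 7 members did (Phlda3 and Plk2 added as higher, Ddit4 as lower). That filter tested 33 members, and 4325 of all 21700 genes tested passed with it. Of the death genes, Phlda3 thus passed as higher with the filter of 1 count. Trp53inp1 did so with each library's trends in GC content, length and span removed, and Ei24 with all 8 mice in 1 fit.

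In KD mice, 6 of the 32 genes were lower in sick than in young mice (Btg2, Plk2, Rrm2b, Trp53inp1, Sesn1 and Cd82) and 0 were higher. Of the 14656 genes tested, 11.4% were lower and 9.45% higher. Sick KD mice were also older than young KD mice, so disease and age cannot be told apart here. In either direction 18.8% of the members and 20.9% of all genes were called. Both sick KD mice were below both young KD mice for 11 members and above them for 5, beside 32.4% and 34.3% of all genes. The median log2 fold change was -0.08 over the members and 0.01 over all genes. This comparison and the previous one share the sick KD libraries, so Btg2, Sesn1 and Cd82, which were called in both, rest on the same 2 mice. Without young KD mouse 1, Btg2, Rrm2b and Trp53inp1 were lower and Ddit4 was higher, and with DESeq2 Ddit4 was added as higher to the 6.

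In KO mice the only member called with age was Rrm2b, 1 of 32 genes, at a lower level in old mice. Of the 14847 genes tested, 0.606% were lower and 0.323% higher (0.929% in either direction). Both old KO mice were above both young KO mice for 6 members and below them for 5, beside 18.8% and 18.9% of all genes. Cd82 was among the 6, at 71.4 and 52.98 CPM against 45.5 and 48.1 CPM, and did not pass the test. The call of Rrm2b was lost when either young KO mouse or the old KO mouse of 158 days was left out (adjusted p 0.0789 to 0.121, edgeR), and DESeq2 added Trp53inp1.

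Whether the gap between KO and KD was the same in young mice as at the later stage was tested in all 8 mice as an interaction. It was positive and passed for 3 of the 32 genes, while 4.32% of the 15102 genes tested passed in this direction, 3.11% in the other and 7.43% in either. Btg2 had 1.11 (SE 0.24, adjusted p = 0.0362, edgeR), Cd82 had 1.14 (SE 0.24, adjusted p = 0.0340, edgeR) and Sesn1 had 0.87 (SE 0.15, adjusted p = 0.0205, edgeR). In all 3, sick KD was the lowest group. The log2 fold change of young KO against young KD did not pass (-0.27 for Btg2, -0.15 for Cd82 and -0.15 for Sesn1). In Cd82 old KO was also above young KO by 0.41, which did not pass either. With a filter of 1 count, 2919 of all 23025 genes tested passed the interaction test. The calls depended on single mice: 0 of the 3 passed without sick KD mouse 1, old KO mouse 1, young KD mouse 1 or either young KO mouse, and 8 members passed with a filter of 1 count.

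Across the 8 libraries, 7 members had both sick KD values below the other 6 (Btg2, Cd82, Ei24, Gadd45a, Phlda3, Plk2 and Sesn1) and 2 had both above (Ercc5 and Zmat3), as did 23.7% and 24.6% of all genes tested. The pattern of low values in all 4 sick and old libraries held for 3 members (Gtse1, Rrm2b and Trp53inp1) and for 6.46% of all genes.

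**Figure D4:**
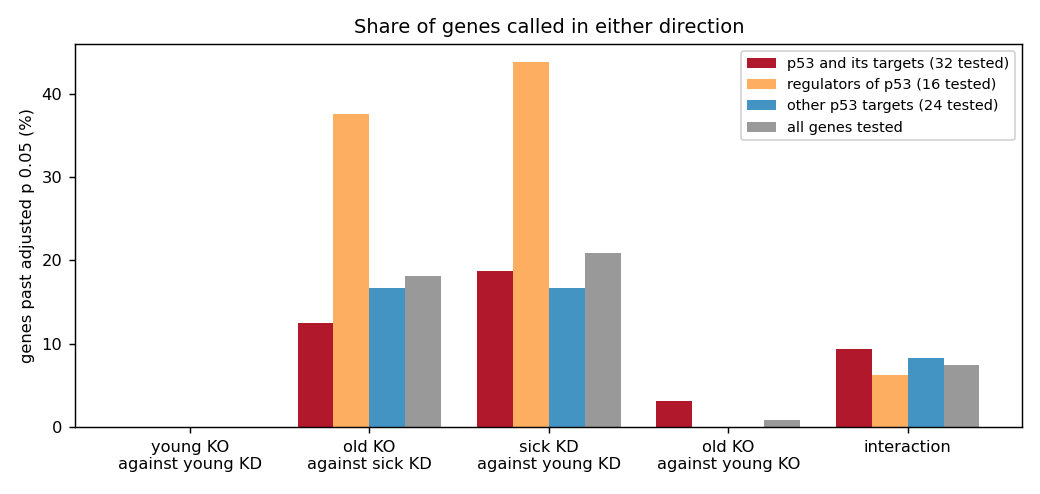
Percent of tested genes past adjusted p 0.05 in either direction for the 32 tested members, 16 regulators of p53, 24 other p53 targets and all genes, in 5 comparisons. The members stand at 12.5% in old KO against sick KD and 18.8% in sick KD against young KD, below all genes at 18.1% and 20.9%, the regulators stand above them at 37.5% and 43.8%, the other targets at 16.7% in both, and in the young comparison the 3 lists stand at 0 and all genes at 0.0404%.

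The cell types of the marrow shifted in the same comparisons, and in whole BM cells fewer cells of a type and less RNA per cell cannot be told apart. Markers of erythroid cells summed to 767 and 1158 CPM in sick KD, 5506 and 3450 CPM in old KO, 1728 and 4089 CPM in young KO and 4762 and 1860 CPM in young KD. All 9 of them were higher in old KO than in sick KD and lower in sick KD than in young KD. Neutrophil markers summed to 10557 and 8464 CPM in sick KD and 4646 to 6079 CPM elsewhere, and 5 of 12 were lower in old KO than in sick KD.

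B cell markers summed to 37.1 and 97.2 CPM in sick KD, 132 and 212 CPM in old KO and 651 to 1034 CPM in the young groups. All 10 fell from young KD to sick KD and 9 of 10 from young KO to old KO. T and NK cell markers summed to 18.002 and 14.1 CPM in sick KD and 32.4 to 41.4 CPM elsewhere, and stroma and endothelium markers to 28.1 and 28.0 CPM in sick KD and 111 to 219 CPM elsewhere. Of these, 4 of 8 and 4 of 6 were higher in old KO than in sick KD.

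Eosinophil, basophil and mast cell markers summed to 343 and 391 CPM in sick KD and 695 to 1150 CPM in old KO, with 4 of 6 higher in old KO. Monocyte markers summed to 5846 to 9095 CPM and stem and progenitor markers to 190 to 306 CPM, with 1 of 7 and 0 of 7 higher in old KO than in sick KD. Megakaryocyte markers summed to 72.2 to 326 CPM, with 0 of 7 called in any comparison. Markers of dividing cells summed to 5562 to 6863 CPM, and 0 of 18 passed in any of the comparisons. No list had a marker at 0 in both mice of a group, so each marker was counted in at least 1 mouse of every group. The 4 RNAs without a poly(A) tail were all higher in sick KD than in young KD or old KO. The part of cell types, RNA composition, age and disease in the levels of the p53 target genes was not tested. Disease and allele cannot be told apart in old KO against sick KD, nor disease and age in sick KD against young KD.

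Other genes of the p53 pathway were read from separate lists. Of 26 further p53 targets, 24 were tested, and 4 were higher and 0 lower in old KO than in sick KD (Bbc3, Ephx1, Shisa5 and Rap2b). The share called was 16.7%, near the 18.1% of all genes tested, and the median log2 fold change was 0.25, beside -0.00 over all genes. Bbc3, which encodes the apoptosis inducer PUMA, read 2.26 and 2.88 CPM in sick KD, 8.07 and 6.56 CPM in old KO, 5.43 and 4.54 CPM in young KO and 5.33 and 5.07 CPM in young KD. Sick KD was the lowest and old KO the highest group, with no overlap, and the log2 fold change was 1.51 (SE 0.26, adjusted p = 0.0125, edgeR). Pmaip1, which encodes the related inducer NOXA, read 8.72 and 8.78 CPM in sick KD and 12.4 and 13.6 CPM in old KO, a log2 fold change of 0.57 that did not pass (SE 0.18, adjusted p = 0.0671, edgeR).

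Ephx1, a hydrolase that detoxifies epoxides, was higher in old KO by a log2 fold change of 1.24 (SE 0.30, adjusted p = 0.0330, edgeR), at 4.86 and 4.57 CPM against 1.53 and 2.45 CPM in sick KD. Shisa5 (Scotin), a pro-apoptotic protein of the endoplasmic reticulum, was higher by 0.83 (SE 0.16, adjusted p = 0.0176, edgeR), at 342 and 329 CPM against 166 and 213 CPM. In sick KD against young KD 4 of the 24 were lower (Bbc3, Epha2, Shisa5 and Ephx1) and 0 higher, 16.7% beside 20.9% of all genes. With those trends removed 6 were lower and 2 higher, and with DESeq2 7 were lower and 0 higher. Calls over all 14656 genes also rose, from 3063 to 4624 with the trends removed and 3385 with DESeq2. In young KO against young KD and in old KO against young KO none of the 24 targets passed by edgeR or DESeq2. An unadjusted p under 0.05 was reached by 1 and 3 of them by edgeR and 2 and 3 by DESeq2.

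Of 17 regulators of p53, 16 were tested, and in old KO against sick KD 2 were higher (Kdm1a and Setd7) and 4 lower (Ep300, Crebbp, Hipk2 and Prkdc). The share called was 37.5%, beside 18.1% of all genes tested, with calls in both directions and a median log2 fold change of -0.07. Ep300 and Crebbp, the acetyltransferases p300 and CBP that acetylate p53 and many other proteins, read 369 and 304 CPM and 212 and 185 CPM in sick KD, against 196 and 196 CPM and 125 and 122 CPM in old KO. Both were highest in sick KD without overlap. Their log2 fold changes were -0.78 (SE 0.14, adjusted p = 0.0157, edgeR) and -0.68 (SE 0.13, adjusted p = 0.0157, edgeR).

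The demethylase Kdm1a and the methyltransferase Setd7, which both act on lysines of p53, are given because they bear on the study's question, a choice made after their values were seen. Kdm1a read 52.8 and 57.7 CPM in sick KD, 79.3 and 79.5 CPM in old KO, 79.9 and 81.1 CPM in young KO and 87.8 and 79.4 CPM in young KD. Setd7 read 56.6 and 58.9 CPM in sick KD and between 74.6 and 81.7 CPM in the other 6 libraries. Both were lowest in sick KD without overlap, with log2 fold changes for old KO against sick KD of 0.53 for Kdm1a (SE 0.11, adjusted p = 0.0224, edgeR) and 0.44 for Setd7 (SE 0.11, adjusted p = 0.0357, edgeR). With the trends removed, Kdm1a was higher by 0.33 (adjusted p = 0.0288, edgeR). In sick KD against young KD 3 of the 16 regulators were higher and 4 lower, 43.8% beside 20.9% of all genes, and in the interaction 1, Kdm1a, was higher. With the trends removed 5 were higher and 5 lower, and in the interaction 1 higher and 2 lower. With DESeq2 these counts were 5 and 4, and 1 and 1. Over all genes tested, calls went from 3063 to 4624 of 14656 with the trends removed and 3385 with DESeq2. In the interaction they went from 1122 to 1969 of 15102 and to 1951. In young KO against young KD and in old KO against young KO none of the 16 regulators passed by edgeR or DESeq2. An unadjusted p under 0.05 was reached by 0 of them by either tool.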

How the data were processed

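Whole BM cells of 8 mice were profiled by stranded poly(A) RNA-seq, 2 mice in each of 4 groups. The authors aligned reads to mm10 with TopHat2 2.0.10 and counted them with HTSeq, and the deposited raw count of each gene was used as it stands. The Ensembl release and the strand setting of the counting are not given in the sources used here. Groups and ages came from the labels. Library depth is given in the report, and precision was limited by having 2 mice in a group.

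Symbols came from GENCODE M21 on GRCm38, which names 40340 of the 41214 identifiers. The quasi-likelihood test of edgeR 4.0.16 (R 4.3.3) was run on genes kept by filterByExpr after TMM scaling, at an adjusted p under 0.05 (Benjamini-Hochberg over all genes tested). Each comparison was fitted on its own 4 mice, and the interaction on all 8. The standard error (SE) was recovered from the size of the log2 fold change and the root of its F statistic. An exact test of 2 against 2 mice could not reach the threshold and was not used. Promoter windows were searched in Python 3.11.15 with pandas 2.3.3.

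The 33 members, the lists of other p53 pathway genes and the lists of cell type markers (erythroid, neutrophil, monocyte, B cell, T and NK cell, megakaryocyte, eosinophil to mast, stem and progenitor, stroma and endothelium, dividing cells, and RNA without a poly(A) tail) were chosen with earlier results of these data known. By rule, statistics were given for members past the threshold and for Trp53, Mdm2 and Cdkn1a between KO and KD. Of the other pathway genes, Bbc3, Pmaip1 and the 4 with the largest change past the threshold in old KO against sick KD were named. Other statistics were added after the values were seen. Alternatives were DESeq2 1.42.0, upper-quartile scaling, a filter of 1 count, removal of trends in GC content, length and span, leaving out the 50 genes with most counts, all 8 mice in 1 fit, and leaving out each mouse in turn. The scripts were tested on simulated data.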

Additional observations from a re-analysis of the deposited data

Results flagged for a closer look

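In 3 genes the KO-to-KD difference in old or sick mice differed from that in young mice by an interaction test in all 8 mice (edgeR, Benjamini-Hochberg). The difference of the log2 fold changes was 1.11 for Btg2 (standard error 0.24, adjusted p = 0.0362), 1.14 for Cd82 (standard error 0.24, adjusted p = 0.0340) and 0.87 for Sesn1 (standard error 0.15, adjusted p = 0.0205). The old and sick mice differ in disease as well as in the allele, so this test cannot tell the 2 apart.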

How the results depend on the processing

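No paired analysis was possible because each mouse has its own number and groups share none. The number of p53 genes called in old KO against sick KD (4) was 7 with a filter of 1 count and 2 to 5 with a mouse left out, the lowest without old KO mouse 1. In sick KD against young KD (6) it was 4 to 8 with a mouse left out, and 9 with the filter of 1 count. Ddit4 was called higher there by DESeq2, with that filter and without sick KD mouse 1 or young KD mouse 1, and Ccng1 without sick KD mouse 2. In old KO against young KO (1) it was 2 with DESeq2, 3 with the filter of 1 count and 0 to 1 with a mouse left out. For the interaction (3) it was 8 with the filter of 1 count and 0 to 3 with a mouse left out. In the young comparison it was 0 under all 10 alternatives. The filter of 1 count tested 33 members. Over all genes it called 4325 of 21700 in old KO against sick KD and 4402 of 21807 in sick KD against young KD. It called 796 of 21783 in old KO against young KO and 2919 of 23025 in the interaction. With a mouse left out, the lone mouse of its group is assumed to vary like the others.

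Btg2 and Cd82 passed in old KO against sick KD, and Btg2, Rrm2b and Trp53inp1 in sick KD against young KD, under all 10 alternatives. Gadd45a in old KO against sick KD was lost without the 50 genes with most counts (adjusted p = 0.0503, edgeR), with all 8 mice in 1 fit (0.0571) and without either sick KD mouse or old KO mouse 1 (0.0529 to 0.255). Sesn1 was lost there without old KO mouse 1 (adjusted p = 0.0566, edgeR), and in sick KD against young KD without young KD mouse 1 (0.0536). Plk2 and Cd82 were lost in sick KD against young KD without sick KD mouse 1 or young KD mouse 1 (0.0652 to 0.121). Small differences that did not pass turned sign. In old KO against sick KD, Trp53 became -0.028 with the trends removed and -0.049 without sick KD mouse 1 (-0.049 to 0.35 over the mice left out), Mdm2 became -0.047 with the trends removed and -0.12 without sick KD mouse 2 (-0.12 to 0.18), and Cdkn1a became 0.34 without sick KD mouse 2 (-0.44 to 0.34). In young mice Trp53 became 0.044 and 0.068 without young KO mouse 1 and young KD mouse 1 (-0.086 to 0.068). The cause of these changes was not tested.

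The count over all genes moved by more than 1.5 times as follows. In old KO against sick KD it went from 2626 to 4325 with the filter of 1 count, 4200 with all 8 mice in 1 fit and 1567 to 3173 with a mouse left out. In sick KD against young KD it went from 3063 to 4624 with the trends removed and 1278 to 3337 with a mouse left out. In old KO against young KO it went from 138 to 383 with DESeq2, 796 with the filter of 1 count and 21 to 245 with a mouse left out, and the 48 higher and 90 lower became 414 and 382 with that filter. In young mice it went from 6 to 27 with DESeq2, 119 with the filter of 1 count 3 with all 8 mice in 1 fit and 2 to 5 with a mouse left out. For the interaction it went from 1122 to 1951 with DESeq2, 2919 with the filter of 1 count, 1969 with the trends removed and 129 to 1670 with a mouse left out. With the trends removed, the regulators of p53 called in old KO against sick KD were 3 higher and 5 lower (3 and 6 with DESeq2) and the other targets 5 higher and 1 lower (5 and 0 with DESeq2), and Pmaip1 then passed (adjusted p = 0.0233, edgeR). In old KO against sick KD, 3775 of the 14470 genes tested were called with the trends removed and 3059 with DESeq2. At this depth Eda2r and Phlda3 could not be measured precisely.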
